A study of Homo sapiens with 6 samples.

Results

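The EGF family ligands and ERBB receptors examined were the 10 genes EGFR, ERBB2, ERBB3, HBEGF, TGFA, AREG, EPGN, EREG, BTC and NRG1, taken by symbol from the 54259 gene symbols of a table of RNA-Sequence read counts. All 10 were listed. Of these, 9 had enough reads to be tested among 15277 tested genes, and BTC did not. The libraries came from MDA-MB-231 cells, an established human breast cancer line, carrying either a short hairpin RNA against the transcription factor brachyury (shBry, 3 libraries) or a control hairpin (shNC, 3 libraries). No further treatment, time point or allele was given by the labels, and neither the hairpin sequence nor the number of clones behind each line was given in the sources used here. The labels do not say whether the 3 libraries of a group came from separate cultures, so p-values measure the spread between these libraries only. The deposited design text calls the RNA pericardial, while the labels name the breast line.

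ERBB receptors are tyrosine kinases at the cell surface that pair with each other when a ligand binds. EGFR binds EGF, TGFA, AREG, EPGN, HBEGF, BTC and EREG. The last 3 of these also bind ERBB4, and NRG1 binds ERBB3 and ERBB4. ERBB2 has no known ligand of its own and acts as a partner, and ERBB3 has little kinase activity and signals through its partners. The ligands are made as membrane-anchored precursors and are mostly released by ADAM proteases. MDA-MB-231 cells are known for abundant EGFR and no ERBB2 amplification.

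Read totals lay between 19319411 and 22985371 per library. The first principal component of log2 CPM (read counts normalised to library size, scaled by the TMM method of edgeR) held 79.1% of the variance and separated shBry from shNC, and shBry replicates 1 and 2 lay at opposite ends of the second component. Brachyury, listed under the older symbol T, had 0 counts in all 6 libraries, a value that leaves room for at most 0.162 CPM (3 counts, counting error only). The hairpin's effect on its target was therefore not visible in these counts. All 7 markers of the mesenchymal-like line were tested, and 1 was called higher (ZEB1, 22.6 to 35.8 CPM) and 1 lower (CAV1, 189 to 87.6 CPM). VIM had a mean of 3860 CPM in shNC and 3200 CPM in shBry, and AXL 907 and 1140 CPM. The basal markers KRT5 and KRT14 were at 0, and KRT17 had 3 counts in all. Of 6 mesothelial markers, 3 were tested, with 1 called higher (LRRN4) and 1 lower (CALB2, 4.62 to 0.81 CPM, with 222 of its 332 counts in 1 library). MSLN, not called, averaged 32.1 CPM in shNC and 45.9 CPM in shBry, ITLN1 was at 0 and WT1 had at most 7 counts in a library. The 6 markers together held between 40.2 and 42.1 CPM in shNC and between 51.4 and 57.7 CPM in shBry. The leukocyte markers PTPRC and TYROBP were at 0, and the 5 leukocyte markers summed to at most 0.229 CPM in any library. The 4 fibroblast markers summed to between 19.4 and 24.1 CPM, nearly all of it COL1A1, with DCN at 0, and the 3 endothelial markers to at most 1.23 CPM. Of 10 epithelial or luminal markers, 7 were tested, 1 was called higher (EPCAM) and 3 lower (KRT8, KRT19 and CLDN3), while 32.4% of all tested genes were called in either direction. Their summed level ranged from 1340 to 1460 CPM in shNC and from 565 to 706 CPM in shBry, a difference carried mainly by KRT8, at 891 CPM in shNC and 239 CPM in shBry. CDH1 had at most 2 counts in any library. The part of these markers in the results on ERBB genes was not tested. Fewer cells of a type and less RNA per cell cannot be told apart in these bulk libraries.

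The ligand genes EPGN, EREG, AREG and BTC lie next to each other on the long arm of chromosome 4 (GRCh38), at 74308473-74315307, 74365143-74388751 and 74445134-74455009 on the plus strand and at 74744759-74794686 on the minus strand. EPGN and EREG are 49.8 kb apart, EREG and AREG 56.4 kb, and AREG and BTC 289.8 kb. HBEGF lies on chromosome 5 at 140332843-140346631 on the minus strand and TGFA on chromosome 2 at 70447280-70554193 on the minus strand. The 250 bases before the RefSeq gene start (GRCh38.p14) are shown for the 3 ligands of the cluster that were called higher in shBry and for HBEGF, the most abundant ligand, to set their promoters side by side. Each is written 5′ to 3′ on the strand of its gene, and capitals mark matches to the motifs described after them. The AREG window is chr4:74444886-74445135, the EREG window chr4:74364895-74365144 and the EPGN window chr4:74308220-74308469, all plus strand, and the HBEGF window is chr5:140346604-140346853, minus strand.
AREG: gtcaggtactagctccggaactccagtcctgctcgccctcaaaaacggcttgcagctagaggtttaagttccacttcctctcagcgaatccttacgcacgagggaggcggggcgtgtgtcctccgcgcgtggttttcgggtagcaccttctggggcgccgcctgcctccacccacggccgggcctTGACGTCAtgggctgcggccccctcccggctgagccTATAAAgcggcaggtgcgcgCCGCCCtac
EREG: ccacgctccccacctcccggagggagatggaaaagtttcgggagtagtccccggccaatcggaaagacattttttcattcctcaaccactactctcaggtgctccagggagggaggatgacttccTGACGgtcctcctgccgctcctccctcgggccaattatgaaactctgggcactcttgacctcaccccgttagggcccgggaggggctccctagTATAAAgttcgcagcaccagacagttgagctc
EPGN: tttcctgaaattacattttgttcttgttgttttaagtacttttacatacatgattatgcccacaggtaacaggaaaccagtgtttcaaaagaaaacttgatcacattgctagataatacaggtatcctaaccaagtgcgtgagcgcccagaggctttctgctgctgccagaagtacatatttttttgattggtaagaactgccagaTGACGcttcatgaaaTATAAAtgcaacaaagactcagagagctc
HBEGF: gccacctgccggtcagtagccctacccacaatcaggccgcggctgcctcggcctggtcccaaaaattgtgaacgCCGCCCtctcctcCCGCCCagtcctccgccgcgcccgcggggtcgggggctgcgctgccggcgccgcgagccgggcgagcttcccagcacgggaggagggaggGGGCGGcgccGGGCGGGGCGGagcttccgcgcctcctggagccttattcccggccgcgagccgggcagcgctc
The letters TATAAA, searched on the gene's strand only, began 29 bases before the start in AREG, 32 bases before it in EREG and 29 bases before it in EPGN. They stood in 7.17% of 27305 promoters of the same length. They were in none of the other 5 member promoters of the table, which are those of HBEGF, TGFA, BTC, EGFR and ERBB2. The core TGACG of the cyclic AMP response element, searched on both strands, was found in AREG, EREG, EPGN and TGFA, against 21.7% of all promoters. AREG held the full element TGACGTCA, which contains the core on either strand, 65 bases before its start, and 1.77% of all promoters held it. The SP1 box GGGCGG stood in HBEGF, TGFA, AREG and EGFR and in 42.3% of all promoters, with 5 matches in HBEGF. The AP-1 site TGANTCA was found in ERBB2 only among the 8 member promoters, and in 6.6% of all. Neither the NF-kappa-B site (1.73% of all promoters), nor TGATGNAA (amino acid response element, 3.19%), nor CACGTG (6.49%), nor the T-box letters AGGTGTGA (0.787%) occurred in the 8 windows. These matches describe letters and not binding.

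The question put by the design is which genes differ between cells with the brachyury hairpin and cells with the control hairpin. Genes were called at a Benjamini-Hochberg adjusted p below 0.05 over all tested genes, in edgeR's quasi-likelihood test, together with a fold change above 1.5. All 6 tested member ligands were called higher in shBry, with log2 fold changes between 1.29 and 4.32. None of the 3 receptors was called higher, and ERBB3 was called lower. Of the tested ligands outside the members, NRG2 was called lower at -1.04, and EGF, at -0.61, was not called. The members were chosen with earlier results of these data known. Among all tested genes, 17.1% were called higher and 15.2% were called lower, and the median log2 fold change was 0.033. The median was 2.27 over the 6 tested member ligands and 2.01 over the 9 tested members. HBEGF, TGFA, AREG, EPGN and EREG were called with a fold above 4, as were 1.85% of all tested genes. EREG lay at this limit, at 4.01-fold. Its log2 fold change was 1.99 without TMM and ranged from 1.77 to 2.52 with a library left out, so some settings put it under a fold of 4. EREG passed the filter on low counts through the shBry libraries, since 1 of 3 shNC libraries and 3 of 3 shBry libraries reached its limit of 0.466 CPM, so a difference there was favoured by the filter. The other 8 tested members reached it in all 6 libraries. With a floor of 10 counts in every library, which removed EREG, 5 members were called higher. In that setting 2268 of 13859 tested genes were called higher. All 6 ligand rises and the ERBB3 fall kept their calls when each library was left out in turn.

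**Figure D1:**
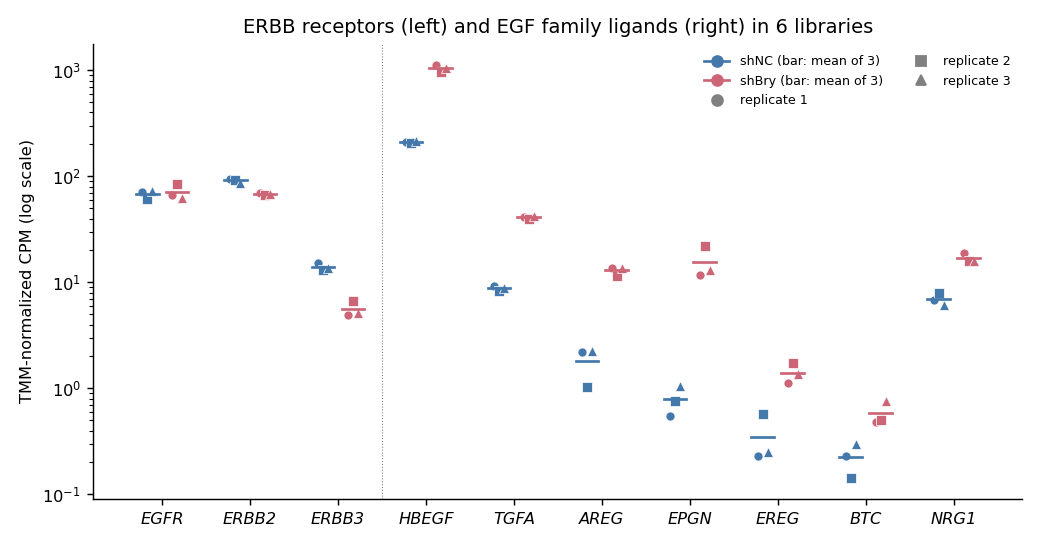
TMM-normalized CPM on a log axis for the 3 receptors and 7 ligands in each of 6 libraries, with a horizontal bar at the mean of each group of 3. The ligand points of shBry lie above those of shNC for all 7 ligands, HBEGF stands near 1060 CPM in shBry, and EGFR is the member whose groups overlap. Among all tested genes, 59.5% had groups that did not overlap, in either direction.

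HBEGF, which encodes the heparin-binding ligand of EGFR and ERBB4, was the most abundant member in both groups. It had 212, 205 and 216 CPM in shNC replicates 1, 2 and 3 and 1130, 971 and 1060 CPM in shBry replicates 1, 2 and 3. The lowest shBry library was 4.5 times the highest shNC library. HBEGF rose from 211 ± 5.71 to 1060 ± 81.7 CPM (SD, n = 3), for a log2 fold change of 2.32 ± 0.08 (SE) with edgeR adjusted p = 4.7e-11. Behind these values stood 13266 counts in shNC and 68083 in shBry, the deepest coverage of any member.

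TGFA encodes transforming growth factor alpha, a classical EGFR ligand. It had 9.21, 8.27 and 8.91 CPM in shNC and 41, 39.9 and 42 CPM in shBry. The groups were far apart and the libraries within each group were close together. TGFA rose 4.65-fold (95% interval 3.93 to 5.5), for a log2 fold change of 2.22 ± 0.11 (SE) with edgeR adjusted p = 1.8e-09. The fold changes of TGFA and HBEGF were near each other, although HBEGF had far more CPM, and their 95% intervals overlapped.

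AREG encodes amphiregulin, an EGFR ligand of the mammary epithelium. It had 2.2, 1.04 and 2.25 CPM in shNC and 13.7, 11.5 and 13.8 CPM in shBry. Replicate 2 was the lowest library in each group. AREG rose 7.08-fold, for a log2 fold change of 2.82 ± 0.23 (SE) with edgeR adjusted p = 2.1e-07, on 115 counts in shNC and 838 in shBry. EPGN encodes epigen, a low-affinity EGFR ligand, and it had the largest fold change of the 9 tested members. It had 0.55, 0.756 and 1.05 CPM in shNC and 11.8, 22 and 13.1 CPM in shBry. The shBry libraries were unequal, with replicate 2 above the other two, and the lowest of them was still 11.2 times the highest shNC library. EPGN rose 19.9-fold (95% interval 12.9 to 30.7), for a log2 fold change of 4.32 ± 0.29 (SE) with edgeR adjusted p = 3e-08, ranking 44 from the top of the 15277 tested genes. Without shBry replicate 2 its log2 fold change was 3.97.

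EREG and BTC, which encode epiregulin and betacellulin, were scarce in both groups. EREG was counted 5, 12 and 5 times in shNC and 21, 41 and 31 times in shBry. It rose to 1.41 ± 0.3 CPM from 0.349 ± 0.189 CPM, for a log2 fold change of 2.01 ± 0.41 (SE) with edgeR adjusted p = 0.00089, with a 95% interval of 2.19-fold to 7.37-fold. BTC was counted 5, 3 and 6 times in shNC and 9, 12 and 17 times in shBry, or 0.224 ± 0.0795 CPM against 0.581 ± 0.15 CPM. Its groups did not overlap, as was the case for 59.5% of all tested genes. The filter removed BTC before the test, because only 0 of 3 shNC libraries and 2 of 3 shBry libraries reached the limit. In a fit without the filter its log2 fold change was 1.34 ± 0.61 (SE, edgeR adjusted p = 0.077), which did not pass. Leaving out shNC replicate 3 or shBry replicate 1 brought BTC into the test and past the threshold, with adjusted p of 0.047 and 0.041 by edgeR. Leaving out shNC replicate 1 or 2 brought it into the test with adjusted p of 0.085 and 0.14. BTC entered these fits through the shBry libraries only, so a difference there was favoured by the filter.

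NRG1 encodes neuregulin 1, a ligand of ERBB3 and ERBB4. It had 6.83, 7.85 and 6.16 CPM in shNC and 19, 15.9 and 16 CPM in shBry. The lowest shBry library stood at 2.02 times the highest shNC library. NRG1 rose 2.44-fold, for a log2 fold change of 1.29 ± 0.15 (SE) with edgeR adjusted p = 5.2e-06, the smallest rise of the 6 tested member ligands. NRG1 lies on chromosome 8 at 31639386-32767959 on the plus strand. Its 95% interval of 1.96-fold to 3.03-fold ended below that of HBEGF, 4.42-fold to 5.68-fold. Counts were given per gene, so the many NRG1 isoforms could not be separated.

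**Figure D2:**
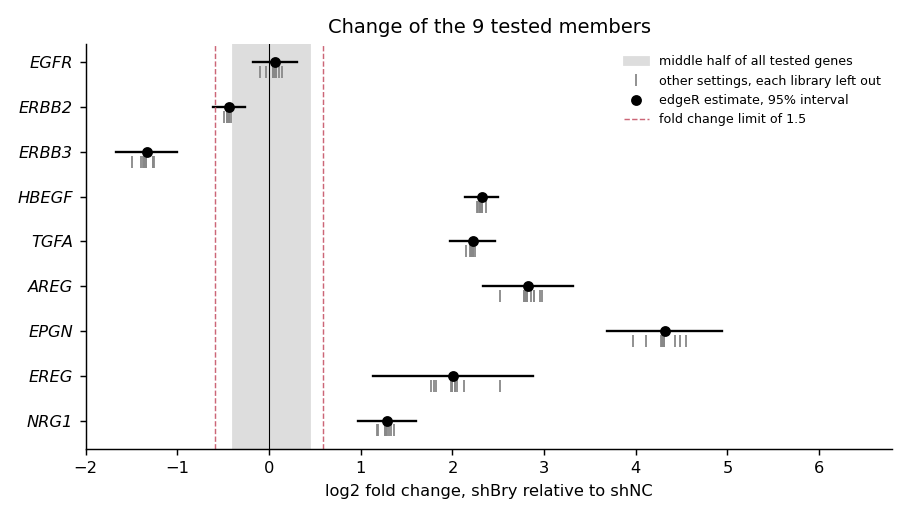
Log2 fold change of shBry relative to shNC for the 9 tested members (points) with 95% intervals (lines), the values under other settings and with each library left out (grey ticks), and the span between the quartiles of all tested genes (grey band, -0.397 to 0.444). The 6 ligands lie to the right of the fold change limit, ERBB3 lies to the left of it, and ERBB2 and EGFR lie between the limits.

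The receptors did not move with the member ligands. EGFR, the receptor shared by most of the ligands, had 70.6, 61.3 and 72.7 CPM in shNC and 66, 84.1 and 62.9 CPM in shBry. The groups overlapped, and shBry replicate 2 was the highest library. Its log2 fold change was 0.06 ± 0.11 (SE, edgeR adjusted p = 0.68), with a 95% interval from -0.18 to 0.30, so a fold change above 1.23 in either direction lay outside the interval. The sign of this small value depended on single libraries. It was -0.10 without shBry replicate 2 and -0.03 without shNC replicate 2.

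ERBB2 encodes the receptor HER2. It had 94.6, 92.4 and 87.4 CPM in shNC and 69, 66.3 and 67.6 CPM in shBry. The groups did not overlap, and the log2 fold change of -0.44 ± 0.08 (SE, edgeR adjusted p = 4e-04) stayed under the fold change limit of 1.5, so ERBB2 was not called. Without a fold change limit, 53.3% of all tested genes had an adjusted p below 0.05. Exons of MIEN1 and PGAP3 overlap 7.41% of the exon bases of ERBB2, where reads could have been dropped or assigned to another gene.

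ERBB3, a receptor for NRG1, was the member called lower. It had 15.3, 13.2 and 13.7 CPM in shNC and 4.95, 6.62 and 5.1 CPM in shBry. Every shBry library lay under every shNC library, with shBry replicate 2 the highest of its group. ERBB3 fell from 14.1 ± 1.07 to 5.56 ± 0.922 CPM (SD, n = 3), for a log2 fold change of -1.33 ± 0.16 (SE) with edgeR adjusted p = 7.1e-06, which is 2.52-fold lower with counts of 886 in shNC and 364 in shBry. Of all tested genes, 3.65% had a lower log2 fold change.

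The remaining genes of the family, ERBB4, EGF, NRG2, NRG3 and NRG4, were at low counts apart from NRG2. NRG2, which encodes a neuregulin that binds ERBB3 and ERBB4, was counted 149, 171 and 167 times in shNC and 55, 86 and 106 times in shBry. It fell with a log2 fold change of -1.04 ± 0.19 (SE) with edgeR adjusted p = 0.00046, opposite in sign to NRG1. Exons of another gene overlap 5.18% of its exon bases. EGF had 43 counts in shNC and 29 in shBry, and its log2 fold change of -0.61 ± 0.47 (SE, edgeR adjusted p = 0.29) did not pass. ERBB4, the receptor shared by HBEGF, BTC, EREG and the neuregulins, had 14 counts in the shNC libraries together and 2 in shBry. NRG3 had 1 count in all, and NRG4 had 10 in each group. These 3 genes were not tested.

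Levels between genes were compared as CPM per kilobase of exon, with the union of the exons of each gene in GENCODE 29. HBEGF had 69.9 ± 1.89 CPM per kilobase in shNC and 350 ± 27.1 in shBry (SD, n = 3), and it ranked first in both groups. In shNC it was followed by ERBB2 with 8.86 and EGFR with 5.45 CPM per kilobase. The order went on with TGFA (1.77 CPM per kilobase) and ERBB3 (1.56), whose ranges overlapped. AREG (1.11), NRG1 (0.613) and EPGN (0.433) followed, each neighbour in that order overlapping the next, and then BTC (0.0795) and EREG (0.061), which overlapped too. In shBry EPGN, TGFA and AREG stood next after HBEGF, with 8.61, 8.25 and 7.88 CPM per kilobase and overlapping neighbours. ERBB2 and EGFR followed with 6.55 and 5.67 CPM per kilobase, which overlapped, and then NRG1 (1.5), ERBB3 (0.615), EREG (0.247) and BTC (0.206), of which EREG and BTC overlapped. The order depends on the length that is used. With the longest transcript of each gene, ERBB2 ranked 2 in shBry in place of 5, and ERBB3 ranked 4 in shNC in place of 5.

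**Figure D3:**
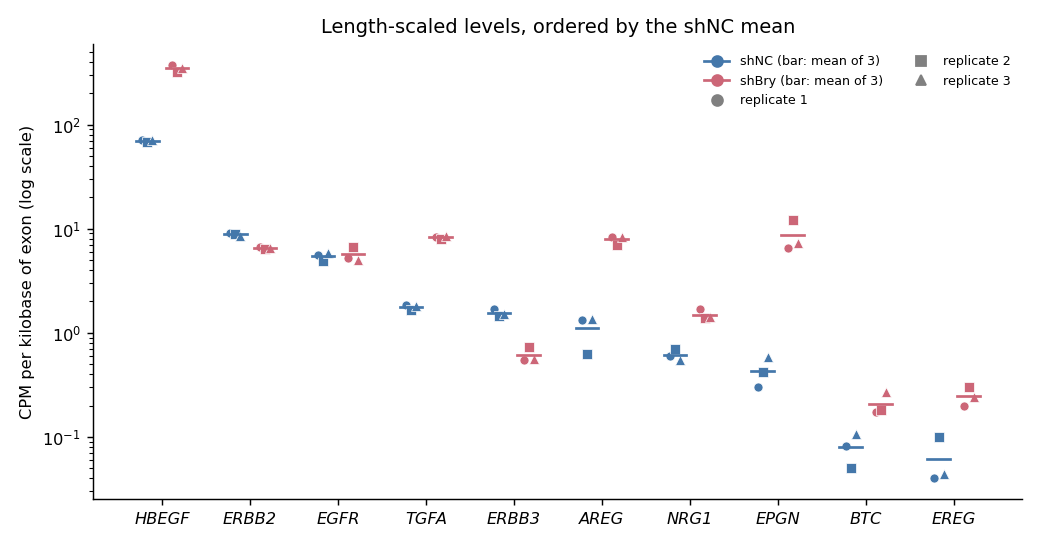
CPM per kilobase of exon on a log axis for the 10 members in each of 6 libraries, ordered by the mean of shNC, with bars at the means of 3 libraries. HBEGF stands at 69.9 in shNC and 350 in shBry, above each other member, and the means of EPGN, TGFA and AREG in shBry (8.61, 8.25 and 7.88) lie above that of ERBB2 (6.55), with EPGN at 6.5 in its lowest library. With the longest transcript ERBB2 has the higher mean (13.7 against 13.1, 9.5 and 10.5).

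The ligand levels of each library were summed on this scale of CPM per kilobase. The 7 ligands together had 74.5, 71.3 and 75.9 in shNC and 401, 351 and 378 in shBry. The 3 receptors together had 16.5, 15.3 and 15.8 in shNC and 12.5, 13.9 and 12.1 in shBry. Ligand sums were thus higher and receptor sums lower in each shBry library than in each shNC library. HBEGF held between 94.2% and 95% of the ligand sum in shNC and between 91.7% and 93.7% in shBry. Without HBEGF the ligand sum was 4.22, 3.56 and 4.44 in shNC and 25.1, 29 and 26 in shBry. NRG2 and EGF, tested but not among the 7 ligands, are left out of these sums. NRG2 had 7.76 CPM in shNC and 3.76 CPM in shBry over 4520 exon bases. TGFA had 8.8 and 40.9 CPM over 4963 exon bases. Adding NRG2 would lower the HBEGF share more in shNC than in shBry. The difference in that share between groups is therefore given for these 7 ligands only. The share of EPGN was 0.585% on average in shNC and 2.33% in shBry, and that of NRG1 0.832% and 0.397%. The ratio of HBEGF to EGFR levels lay between 12.3 and 13.8 in shNC and between 47.9 and 71.3 in shBry. That of ERBB2 to ERBB3 lay between 5.43 and 6.14 in shNC and between 8.77 and 12.2 in shBry. These are shares and ratios of RNA, not of protein.

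The neighbourhood of the chromosome 4 ligands was examined with the 21 coding genes within 1000 kb of EPGN, EREG, AREG or BTC, of which 20 were listed, 4 of them at 0, and 10 were tested. Of the 10, 9 were called higher in shBry, against 17.1% of all tested genes, and none was called lower. The median log2 fold change of the 10 was 1.11. On the side of EPGN lie the chemokine genes CXCL8, CXCL1, CXCL3 and CXCL2, whose products attract neutrophils. Their log2 fold changes were 7.44, 5.05, 4.50 and 5.86, larger than that of EPGN. CXCL2 ends 209.2 kb before EPGN. Between them lies MTHFD2L, an enzyme of folate metabolism that ends 5.4 kb before EPGN, and its log2 fold change was 0.71 (edgeR adjusted p = 0.0048). Beyond BTC, PARM1 had a log2 fold change of 1.19, RCHY1 of 0.95, THAP6 of 0.62 and USO1, a vesicle tethering factor, of 1.03. RCHY1 and THAP6 overlap each other. G3BP2, a stress granule protein, was not called, with a log2 fold change of -0.09 (edgeR adjusted p = 0.56). Without shNC replicate 1, MTHFD2L and THAP6 fell under the fold change limit, at 0.56 and 0.51. ALB, CXCL6, PF4V1 and PPBP were listed at 0 in all libraries, and CXCL5 had 4 counts in shBry and 0 in shNC.

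**Figure D4:**
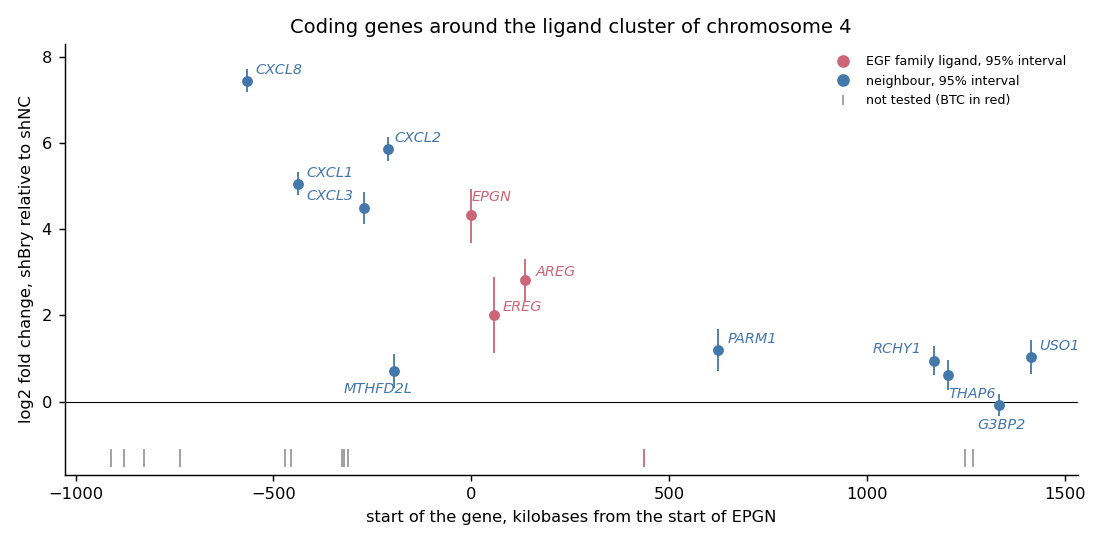
Log2 fold change of shBry relative to shNC (points, with 95% intervals) against the start of each coding gene in kilobases from the start of EPGN, for EGF family ligands (red) and their neighbours (blue), with untested genes as ticks. The chemokine genes on the left lie between 4.50 and 7.44, EPGN, AREG and EREG between 2.01 and 4.32, and G3BP2 lies at -0.09 beside USO1 at 1.03.

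Ligand release was described with 18 genes of shedding and trafficking, all tested. Of these, 2 were called higher and 2 lower, which is 22.2% against 32.4% of all tested genes called in either direction, and the median log2 fold change was 0.08. ADAM17, the main sheddase of HBEGF, TGFA, AREG, EREG and EPGN, was named after its values were seen. It had 46.7, 47.3 and 58.1 CPM in shNC and 77.1, 81.7 and 82.2 CPM in shBry. It rose with a log2 fold change of 0.66 ± 0.10 (SE) with edgeR adjusted p = 6.1e-05. TIMP3, an inhibitor of ADAM17, fell from 6.37 ± 0.626 to 1.93 ± 0.227 CPM, for a log2 fold change of -1.72 ± 0.20 (SE) with edgeR adjusted p = 5.5e-06. ADAM8, another metalloprotease, rose with a log2 fold change of 1.02, and BACE2, an aspartyl protease, fell with -0.74. ADAM10, which sheds EGF and BTC, had a log2 fold change of -0.49 (edgeR adjusted p = 0.0011) and BACE1, which cleaves NRG1, had -0.45 (edgeR adjusted p = 0.00049). Both were lower in each shBry library than in each shNC library, but neither passed the fold change limit. In the other direction, ADAM15 (0.43, edgeR adjusted p = 0.00076) and TMED2 (0.26, edgeR adjusted p = 0.01) were higher in each shBry library and did not pass it. The groups did not overlap for 11 of the 18 genes, against 59.5% of all tested genes. The genes RHBDF1 and RHBDF2, whose iRhom products carry ADAM17 to the surface, had log2 fold changes of 0.04 and 0.14 and were not called.

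Of 22 genes for adaptors and other signaling proteins that act at or just after activated ERBB receptors, 3 were called higher and 2 lower, which is 22.7% against 32.4% of all tested genes, with a median log2 fold change of -0.08. GRB10, an adaptor also known as an inhibitor of insulin signaling, rose from 37.8 ± 1.18 to 104 ± 7.13 CPM, for a log2 fold change of 1.46 ± 0.09 (SE) with edgeR adjusted p = 9.7e-09. SHC1, a main adaptor of activated ERBB receptors, fell from 499 ± 11 to 301 ± 18 CPM, for a log2 fold change of -0.73 ± 0.08 (SE) with edgeR adjusted p = 2.6e-06. GRB7, which lies near ERBB2 on chromosome 17, fell from 2.4 ± 0.0477 to 0.711 ± 0.369 CPM, for a log2 fold change of -1.75 ± 0.34 (SE) with edgeR adjusted p = 0.00064. It was counted only 12, 9 and 25 times in shBry, and its call was lost under a floor of 10 counts in every library. EPS8 and SOS2, named after their values were seen, were called higher at 0.62 each, and both lost the call without shNC replicate 1 and without shBry replicate 2. GRB2, the adaptor that recruits SOS, had 232 ± 5.46 and 217 ± 10.4 CPM and was not called.

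Among 28 genes of receptor inhibition and degradation, 27 were tested, 9 were called higher and none lower, with a median log2 fold change of 0.50. The share called in either direction, 33.3%, was near the 32.4% of all tested genes, while 17.1% of all were called higher. The list was written with earlier results of these data known, so its share called higher was open to selection. ERRFI1, which encodes the feedback inhibitor MIG6 that binds the kinase domain of EGFR, had 256, 241 and 248 CPM in shNC and 1290, 1270 and 1420 CPM in shBry. Its log2 fold change was 2.41 ± 0.08 (SE, edgeR adjusted p = 2.6e-11), and its groups were far apart. RNF41, a ubiquitin ligase that targets ERBB3, had 71.3, 69.1 and 62.8 CPM in shNC and 152, 138 and 138 CPM in shBry, for a log2 fold change of 1.07 ± 0.09 (SE) with edgeR adjusted p = 1.5e-07. NEDD4, another ubiquitin ligase, rose with a log2 fold change of 1.13 (edgeR adjusted p = 5.1e-07). The other genes called higher had log2 fold changes between 0.60 and 0.88. CBL, the main ubiquitin ligase of EGFR, had 0.43, and the inhibitor LRIG1 had 0.10, and neither was called.

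A list of 29 genes known to be induced after EGF stimulation held 28 tested genes, of which 19 (67.9%) were called higher, against 17.1% of all tested genes, and none lower, with a median log2 fold change of 1.0. Several of them also answer to stress, cytokines or other growth factors, so the list is not particular to EGFR. It was written with earlier results of these data known, so its share called higher was open to selection. LIF, a cytokine, rose from 48.4 ± 4.34 to 519 ± 18.1 CPM, for a log2 fold change of 3.42 ± 0.09 (SE) with edgeR adjusted p = 2.3e-12. EGR1, an immediate-early transcription factor, had 7.01, 7.52 and 6.61 CPM in shNC and 81.6, 83.6 and 73.6 CPM in shBry, for a log2 fold change of 3.50 ± 0.11 (SE) with edgeR adjusted p = 1.4e-11. ATF3, a stress-induced factor of the same list, had a log2 fold change of 3.05 (edgeR adjusted p = 2.4e-11). Not every gene of the list was called. SPRY4 and DUSP5 were called higher at 0.72 and 1.44, whereas DUSP6, SPRY2 and FOSL1 had log2 fold changes of -0.07, 0.18 and -0.03 with adjusted p of 0.51, 0.19 and 0.77 (edgeR), and DUSP4 and ETV4, at -0.47 and -0.32, were under the fold change limit. These genes were named after their values were seen. IER3, the untested gene of the list, had 3 counts in all.

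**Figure D5:**
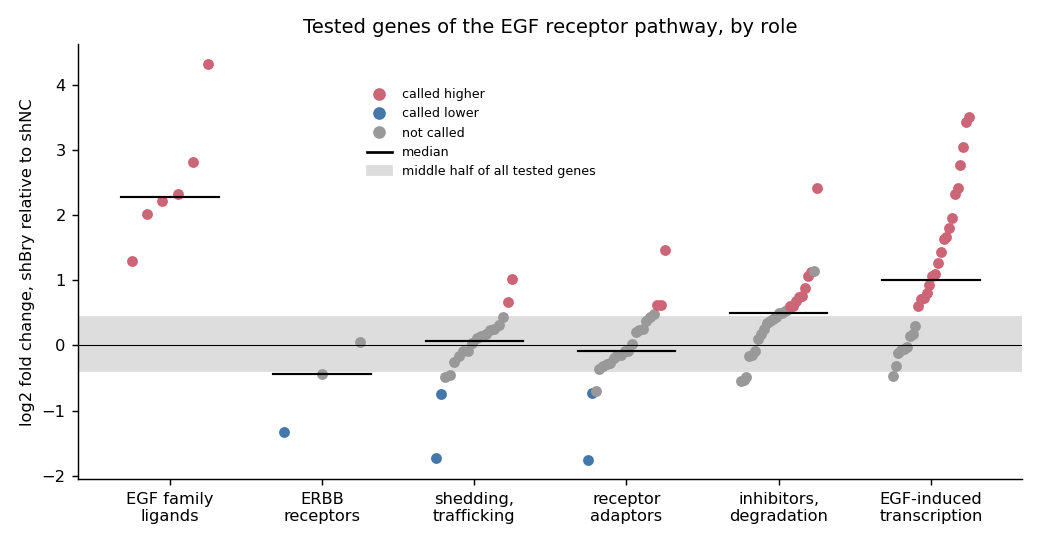
Log2 fold change of shBry relative to shNC for the 9 tested members and the tested pathway genes, by role (points, red called higher, blue called lower, grey not called). Black lines mark the median of each list, and the grey band the span between the quartiles of all tested genes. The tested ligands outside the members, NRG2 (-1.04) and EGF (-0.61), are not drawn. The medians are 2.27 for the member ligands, -0.44 for the receptors, 0.08 for shedding, -0.08 for adaptors, 0.50 for inhibitors and 1.0 for EGF-induced genes.

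The genes whose profile lay closest to that of HBEGF were found among 9412 other tested genes of mean CPM no less than 10, by the Euclidean distance of log2(CPM + 0.5) minus the shNC mean over 6 libraries. With 2 groups this distance mostly reflects the size of the fold change. The 5 nearest were SLC3A2, SPNS3, KLF10, ERRFI1 and DUSP1, with distances of 0.174, 0.194, 0.196, 0.246 and 0.271. Of these, KLF10, ERRFI1 and DUSP1 are also members of the lists described here. SLC3A2, an amino acid transporter subunit, had 240 CPM in shNC and 1150 CPM in shBry, close to the CPM of HBEGF in both groups. No receptor with a mean of at least 10 CPM over all 6 libraries was called (ERBB3 fell below this limit), and the genes nearest to ERBB2, the receptor with the highest CPM over the 6 libraries (EGFR was at 71 and ERBB2 at 67.6 CPM in shBry), were CTDSP2, POMT1, SLC44A2, PXN and RBMX2, at distances between 0.0421 and 0.0621 and log2 fold changes between -0.44 and -0.42.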

How the data were processed

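RNA of MDA-MB-231 shBry and shNC cells was sequenced. The authors deposited raw counts of reads per gene symbol for 3 libraries in each group, with no normalization. The submitters' processing notes name HISAT2 2.0.4, HTSeq and GRCh38, while the annotation and the strand setting are not given in the sources used here. Reads of overlapping genes could therefore have been dropped or assigned to another gene. The filter was filterByExpr with a minimum count of 10, scaling was by TMM, and shBry libraries were set against shNC over all 15277 tested genes in edgeR 4.0.16 (R 4.3.3, quasi-likelihood, no block). Calls needed both a fold change over 1.5 and a p under 0.05 after Benjamini-Hochberg adjustment. The standard error was the log2 fold change divided by the square root of F, and 95% intervals used its t distribution. CPM are TMM-normalized. Libraries of a group differed beyond counting error (chi-square over its degrees of freedom 4.97 to 16.76). Locations and exon lengths came from GENCODE 29 (GRCh38), and promoters from RefSeq (GRCh38.p14), where 8 of 10 members matched by symbol. The fits were tested on simulated data in which far fewer genes changed than were called here, so changes as widespread as these were not covered. The members, lists and the rule for named genes were chosen with earlier results of these data known. All 10 members were named, with the genes of smallest adjusted p or largest change in each other list, all tested neighbours and the nearest profiles. Other genes of the lists were named after their values were seen. Alternatives were no TMM, DESeq2 1.42.0, limma-voom (limma 3.58.1), other filters, thresholds and lengths, a replicate block, and each library left out.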

Additional observations from a re-analysis of the deposited data

How the results depend on the processing

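Over 107 refits of the 9 tested members (without TMM, by DESeq2 or limma-voom, unfiltered, with a floor of 10 counts per library, with a replicate block or without 1 library), 105 kept their direction and their side of the threshold. The other 2 were those of EGFR, at -0.03 without shNC replicate 2 and -0.10 without shBry replicate 2, within a range of -0.10 to 0.14 over the libraries left out. EREG could not be tested under the floor of 10 counts. Members called higher numbered 6 to 7 with a library left out, the seventh being BTC, which passed the filter there through the shBry libraries only. Without a fold change limit 2 members were called lower (ERBB3 and ERBB2) in place of 1, and the lists of shedding, adaptor and inhibitor genes held 8, 14 and 19 called genes in place of 4, 5 and 9, where 53.3% of all tested genes passed. With a limit of 2 they held 2, 2 and 3. With a library left out, adaptor genes called numbered 3 to 5, with 3 without shNC replicate 1, where EPS8 and SOS2 were lost at log2 fold changes of 0.58 and 0.52. Inhibitor genes called numbered 7 to 11, and some of these were lower: EPN1 at -0.64 without shNC replicate 3 and -0.61 without shBry replicate 1, and SOCS5 at -0.83 without shBry replicate 2, where 6 were higher. Deviations from the group means of the same-numbered libraries correlated at 0.246, -0.129 and -0.054, and those of different-numbered libraries between -0.296 and 0.307. Pairing by replicate number was thus not visible, but so few libraries cannot exclude it. With the replicate block, 4914 genes were called in place of 4945, and the log2 fold change was 2.32 for HBEGF and -1.34 for ERBB3, and no call of a member changed. Over the 34 levels and shares per kilobase, 20 moved by more than the spread between libraries with the longest transcript in place of the union of exons, and the share of HBEGF was 94.1% in shNC and 92.3% in shBry. Depth limits EREG and BTC, whose shNC libraries held at most 12 and 6 counts.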
